A study of Mus musculus with 8 samples.

Results

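The genes described here are the organic ion and drug transporters of the mouse, chosen by name. They are all genes of the expression table whose symbol places them in the Slc22a, Slco, Slc47a or Abcc families, together with Abcb1a, Abcb1b, Abcb4 and Abcg2. The rule found 57 of the 52195 genes, of which 41 belong to uptake families, 14 to efflux families and 2 are sulfonylurea receptors, which share the Abcc name but are channel subunits. Their RNA was measured by sequencing polyadenylated RNA from 4 whole tissues, kidney, liver, small intestine and lung, of C57BL/6 mice (C57BL/6J males by the study's methods) aged 6 to 10 weeks, with no treatment described. There were 2 libraries per tissue and 8 in all. All groups share strain and age range and differ by their labels in tissue alone, while sequencing depth also differed, as given below. The study made these libraries to estimate cell-type composition from them and to compare the estimates with single-cell data of the same tissues. By the methods all 4 tissues were taken from each mouse, but the labels do not say which libraries share a mouse, so p-values measure only the spread between these libraries.

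Organic ion transporters move charged, mostly small molecules that cannot cross a membrane unaided, among them drugs, urate, carnitine, prostaglandins and bile acids. Members of the Slc22a and Slco families mainly carry substrates into a cell, the Slc47a antiporters and the ATP-driven Abc pumps carry them out, and an epithelium that places the first kind on one face and the second on the other moves a substrate across. The proximal tubule of the kidney and the hepatocyte are the textbook sites of such routes, leading to urine and to bile, while pumps on the luminal face of the enterocyte return substrates to the gut.

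Values are FPKM, counts of sequenced fragments scaled to transcript length and library size, so levels can be set side by side between genes. Behind them lie an estimated 9164187 to 21444675 reads counted on genes per library, recovered from the deposited values. Recovered reads summed over genes matched once to the annotation came to more, 9399655 to 22132985, so these totals are approximate. Kidney was deepest, at 21444675 and 17310074, and no other library passed 12427339. A count of 3 reads over 1 kb of exons equals an FPKM of 0.140 and 0.173 in kidney and 0.241 to 0.327 elsewhere. This is taken as the limit of detection and allows for counting error alone. The hepatocyte list summed to 39044 and 33629 FPKM in liver against at most 153 elsewhere, the proximal tubule list to 2151 and 1932 in kidney against at most 9.22, the enterocyte list to 5197 and 7133 in intestine against at most 56.6, and the alveolar type 2 list to 15177 and 13181 in lung against at most 18.1, so each tissue label is met by its markers. All 5 pancreatic acinar markers were also present in intestine (summed 2148 and 963 FPKM, at most 4.23 elsewhere) and all 3 cardiac muscle markers in lung (204 and 210 FPKM, at most 8.46 elsewhere). Kidney replicate 1 stood above replicate 2, by a median of 0.22 on the log2 scale over all genes tested and 0.37 over the members, while the other replicate pairs differed by 0.05 or less in both medians. Values below are always given as replicate 1, then replicate 2.

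Kidney held the most transporter RNA and lung the least. Summed over the 57 members, FPKM was 2282 and 1916 in kidney, 736 and 794 in liver, 263 and 292 in intestine, and 144 and 149 in lung, with no overlap between tissues. The steps from kidney to liver and from liver to intestine came mainly from uptake, while efflux shared in the step from intestine to lung. The uptake families summed to 2025 and 1759 in kidney, 615 and 668 in liver, 163 and 163 in intestine, and 109 and 109 in lung. The efflux families were closer together, at 255 and 156 in kidney, 121 and 126 in liver, 98.8 and 128 in intestine, and 33.9 and 38.8 in lung, and here liver and intestine overlapped. Scaling the libraries to a common median of gene ratios (median-of-ratios scaling) moved the mean total of the 57 members from 765 to 1168 FPKM in liver and from 147 to 93.8 in lung, and the order of the tissues held without overlap. The efflux sums were then 249 and 190 in kidney, 193 and 183 in liver, and 88.4 and 122 in intestine, so that kidney overlapped liver and intestine lay below both. In whole tissue, fewer cells of a type and less RNA per cell cannot be told apart.

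**Figure D1:**
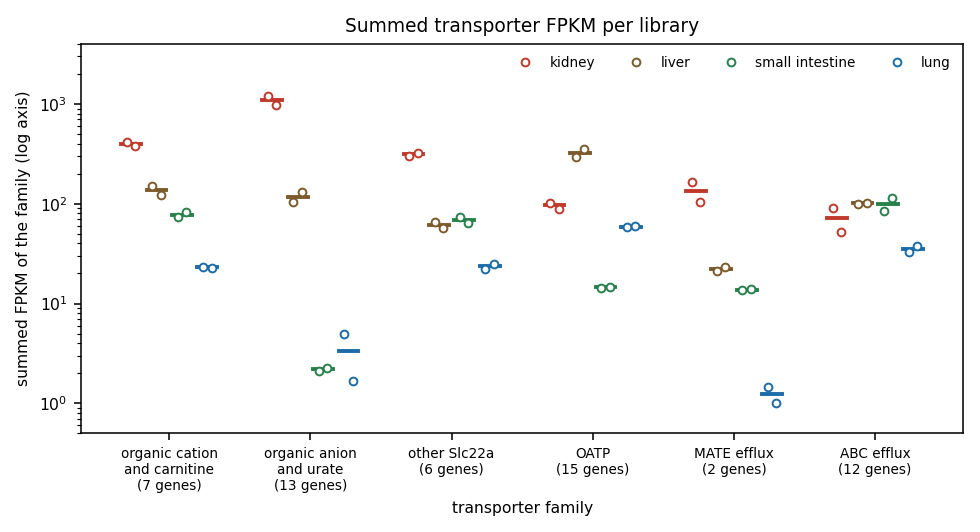
Summed FPKM (log axis) of each transporter family per library, with 1 circle per library and a bar at the mean of the 2 libraries of a tissue. Kidney is highest in the 3 Slc22a groups and in MATE efflux, liver in the organic anion transporting polypeptides (OATP), and the ABC pumps of kidney, liver and intestine lie between 51.6 and 114.

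The families differed in which tissue they marked. Organic anion and urate transporters summed to 1204 and 968 FPKM in kidney, 104 and 131 in liver, and no more than 4.94 in any intestine or lung library. The organic anion transporting polypeptides were instead highest in liver, at 296 and 356 against 103 and 89.5 in kidney, 58.4 and 59.8 in lung, and 14.4 and 14.6 in intestine. The ABC pumps, at 90.7 and 51.6 in kidney, 99.7 and 102 in liver, and 85.0 and 114 in intestine, were lower in both kidney libraries than in both liver libraries, with intestine overlapping both, and lung lay below the other 3 tissues at 32.5 and 37.7. Median-of-ratios scaling raised the mean sums of liver to 496 FPKM for the OATPs and 154 for the ABC pumps and lowered those of lung to 37.8 and 22.4. Liver then stood clear of intestine for the ABC pumps (92.3) and passed it for the other Slc22a genes (94.1 against 63.6).

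Each tissue used a few members heavily. The 6 highest made up 65.2% of the summed transporter FPKM in kidney, 79.0% in liver, 69.7% in intestine and 59.7% in lung. In kidney they included Slc22a12, Slc22a18, Slc22a6 and Slc22a2, with means from 456 down to 158 FPKM. Liver was led by Slco1b2 with a mean of 238. In intestine Slc22a18 led at 53.5, before the pump Abcc2 at 37.1, and in lung the prostaglandin transporter Slco2a1 led at 30.8.

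Of the 57 members, 44 reached an FPKM of 1 in at least 2 libraries and were tested, with 16328 genes in all. By limma, each tissue was set against the average of the remaining 3 on log2(FPKM + 1), a scale that understates the change of low genes, and a gene was called at an adjusted p (Benjamini-Hochberg over all genes tested) under 0.05 and a log2 difference of at least 1. In kidney 25 members passed as higher and 6 as lower, where 8.65% and 16.1% of all genes did so. Liver had 12 higher and 18 lower (6.56% and 32.7% of all genes), intestine 6 higher and 15 lower (13.7% and 11.3%), and lung 8 higher and 22 lower (40.7% and 8.26%). A member that passed the filter through 1 tissue alone had to differ, so these counts describe the members and no more. Kidney and liver held more higher calls, and lung fewer, than the share over all genes. The members' median difference was 1.36 in kidney, where the median over all genes was -0.34, and -0.99 in lung, where it was 0.82. In liver the medians were -0.64 and -0.72, and in intestine -0.58 and -0.01.

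These counts were taken again under another scaling of the libraries. With median-of-ratios scaling the median over all genes became -0.20 in kidney, -0.27 in liver, -0.07 in intestine and 0.21 in lung, and the lower share over all genes in liver fell from 32.7% to 16%. Among the members, 25 were then higher and 7 lower in kidney (10.2% and 13.3% of all genes), 13 and 18 in liver (10.5% and 16%), 5 and 16 in intestine (12.8% and 11.7%), and 5 and 24 in lung (18.8% and 13%). Uptake and efflux members were also counted apart, and the difference between them was not tested. With the values as deposited, 22 of 32 uptake members tested were higher and 3 lower in kidney, and 3 of 11 efflux members were higher and 3 lower, where 8.65% and 16.1% of all genes were. In lung 5 uptake members were higher and 17 lower, and 3 efflux members were higher and 5 lower, where 40.7% and 8.26% of all genes were. Under median-of-ratios scaling 4 uptake members were higher and 19 lower in lung, and 1 efflux member was higher and 5 lower (18.8% and 13% of all genes).

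**Figure D2:**
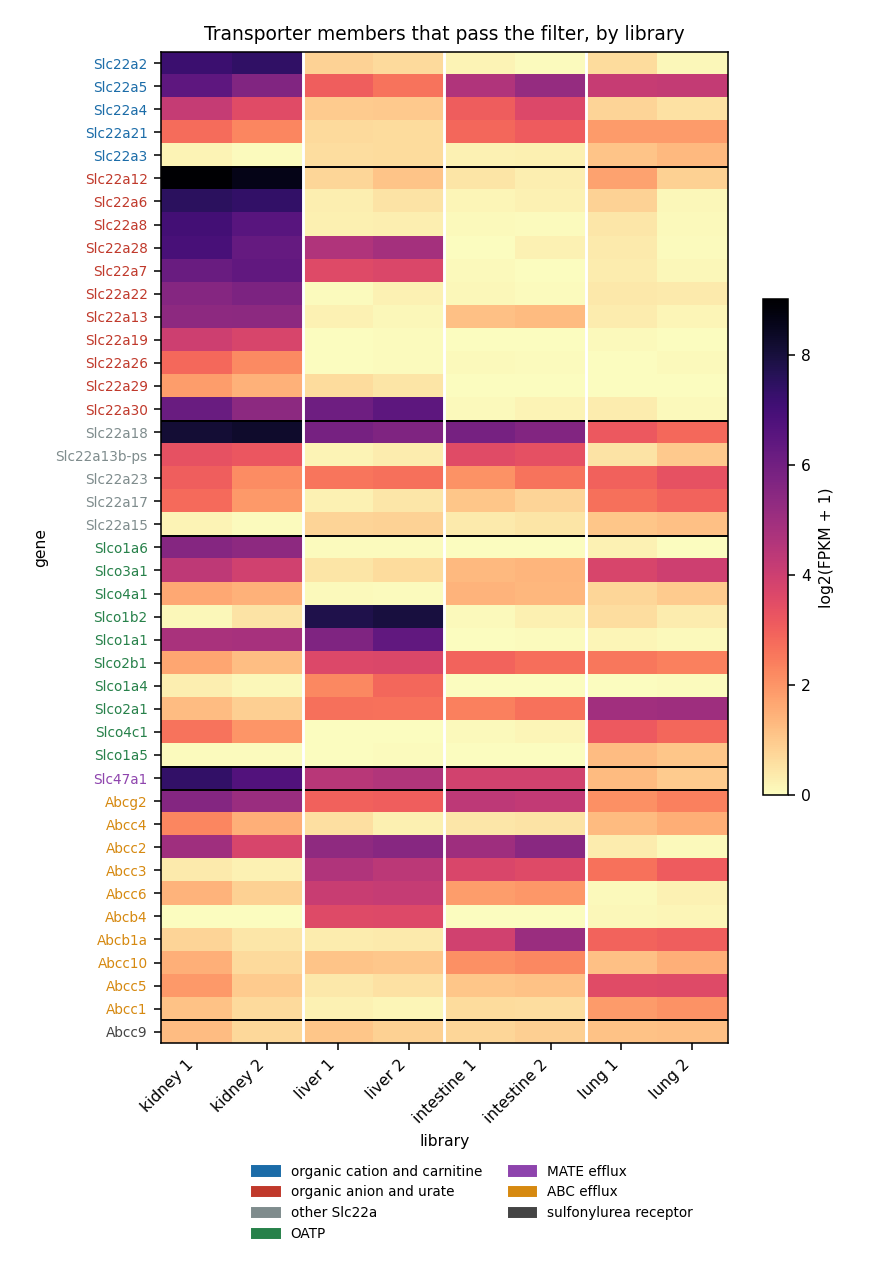
Level of 43 of the 44 tested members (rows, grouped by role) in the 8 libraries (columns), as log2(FPKM + 1), with darker colours for higher levels. Most organic anion and urate rows are dark in kidney, with Slc22a26 and Slc22a29 paler, and those of 3 genes are also dark in liver. The OATP and ABC rows change tissue from gene to gene.

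Organic cation and carnitine transporters bring cationic drugs, metabolites and carnitine into cells. Of 6 tested, 4 were higher and 0 lower in kidney (8.65% and 16.1% of all genes), 1 and 4 in liver (6.56% and 32.7%), 2 and 1 in intestine (13.7% and 11.3%), and 0 and 3 in lung (40.7% and 8.26%). Slc22a2, the cation transporter of the basolateral tubule membrane, was at 148 and 168 FPKM in kidney, 0.774 and 0.595 in liver, 0.152 and 0.0418 in intestine, and 0.581 and 0.0761 in lung. All non-kidney libraries thus lay far below both kidney libraries, and the difference of kidney from the other tissues was 6.89 (SE 0.18, limma adjusted p 5.6e-07).

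The carnitine branch was spread more evenly. Slc22a5, the sodium-coupled carnitine importer, was at 85.5 and 49.3 FPKM in kidney, 7.25 and 5.20 in liver, 24.1 and 35.9 in intestine, and 16.8 and 17.4 in lung, so that it was present in all 8 libraries and lowest in liver. Slc22a4, which carries ergothioneine, was at 17.2 and 10.6 in kidney, 0.940 and 1.02 in liver, 7.53 and 11.4 in intestine, and 0.722 and 0.473 in lung. Kidney replicate 2 lay below intestine replicate 2, so these tissues overlapped, and both were called higher, intestine by 1.52 (SE 0.22, limma adjusted p 0.000847). Slc22a21, a carnitine transporter gene next to both on chromosome 11, was at 5.80 and 3.8 in kidney, 0.629 and 0.558 in liver, 6.33 and 7.61 in intestine, and 2.67 and 2.69 in lung. Slc22a5 and Slc22a21 share 37.8% and 30.8% of their 31-base words with other genes, chiefly each other, so part of their reads may be interchanged. Slc22a3, a cation transporter gene beside Slc22a2 on chromosome 17, peaked in lung at 1.52 FPKM, and 9.3% of its exon length overlaps Plg on the opposite strand.

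All 11 organic anion and urate transporters tested were higher in kidney (8.65% of all genes) and 0 were lower (16.1%). In the other tissues 6 were lower in liver (32.7% of all genes), 8 in intestine (11.3%) and 9 in lung (8.26%), and 3 (Slc22a7, Slc22a28 and Slc22a30) were higher in liver (6.56%). The group's median difference in kidney was 4.91 on the log2 scale, against -0.34 for all genes tested. All 4 proximal tubule markers reached an FPKM of 1 in both kidney libraries, and their part in these differences was not tested.

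Slc22a12, the apical urate reabsorber of the proximal tubule, was the highest member in the data. It was at 518 and 395 FPKM in kidney, 0.679 and 1.16 in liver, 0.380 and 0.235 in intestine, and 2.32 and 0.823 in lung, a difference of 7.95 in favour of kidney (SE 0.25, limma adjusted p 7e-07). No library outside kidney came near the kidney values. Of its exon length 30.1% overlaps Nrxn2 on the opposite strand, and the use of strand in counting is not given in the sources used here. Slc22a6 and Slc22a8 bring organic anions such as drugs into the tubule cell from the blood. Slc22a6 was at 181 and 167 in kidney, 0.244 and 0.409 in liver, 0.106 and 0.175 in intestine, and 0.763 and 0.0999 in lung, a difference of 7.09 (SE 0.20, limma adjusted p 5.82e-07). Slc22a8 was at 131 and 94.6 in kidney, 0.188 and 0.223 in liver, 0.0614 and 0.0254 in intestine, and 0.353 and 0.0694 in lung, a difference of 6.61 (SE 0.18, limma adjusted p 5.6e-07). Both were thus separated from every other library by a wide gap.

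Slc22a6 and Slc22a8 lie side by side on chromosome 19 and were high in the same libraries, so their upstream sequences are shown. That of lung-led Slco2a1, which holds the exact letters TATAAA near the start, is shown with them. The 250 bases before the RefSeq transcript start were read for 46 of the 57 members (build GRCm38.p6) and searched on both strands for the TATA box TATAAA and the HNF4 core CAAAGTCCA, which do not overlap. The TATA box letters occurred in 5 of 46 members (10.9%), beside 14.3% of 27025 genes. Only the exact letters were counted, so a variant such as tatataag, near the end of the Slc22a8 sequence below, was not. No member held the HNF4 core (0.451% of all genes). The 5 were Slc22a22, Slco1a1, Slco1a5, Slco1b2 and Slco2a1. Sequences are printed 5′ to 3′ along the gene, with the TATA box in capitals and its first base at -29 from the start in Slco2a1. The windows are chr19:8617746-8617995 (+), chr19:8592932-8593181 (+) and chr9:103008237-103008486 (+) in the order printed, and the RefSeq starts of Slc22a6, Slc22a8 and Slco2a1 match no transcript start of the GENCODE annotation.
Slc22a6: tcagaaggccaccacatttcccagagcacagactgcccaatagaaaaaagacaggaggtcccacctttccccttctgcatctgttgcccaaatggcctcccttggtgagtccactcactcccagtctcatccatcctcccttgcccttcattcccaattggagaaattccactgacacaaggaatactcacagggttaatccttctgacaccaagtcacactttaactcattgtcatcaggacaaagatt
Slc22a8: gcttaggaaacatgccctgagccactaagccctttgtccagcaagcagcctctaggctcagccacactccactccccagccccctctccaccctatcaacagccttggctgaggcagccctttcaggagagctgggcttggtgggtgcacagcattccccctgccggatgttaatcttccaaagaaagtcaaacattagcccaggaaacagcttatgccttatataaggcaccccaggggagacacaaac
Slco2a1: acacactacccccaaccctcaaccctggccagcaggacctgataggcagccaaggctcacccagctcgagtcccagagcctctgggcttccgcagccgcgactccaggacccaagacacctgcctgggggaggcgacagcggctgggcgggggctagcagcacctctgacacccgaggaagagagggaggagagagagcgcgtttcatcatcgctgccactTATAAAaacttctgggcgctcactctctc

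A match of these letters is a description and not evidence of a bound site. The factor Hnf4a itself was at 93.8 and 62.2 FPKM in kidney, 61.5 and 60.3 in liver, 58.7 and 79.3 in intestine, and 0.764 and 0.350 in lung. Cdx2, an intestinal factor, was at 23.9 and 27.5 in intestine and at most 0.0256 elsewhere. Of a list of 10 transcription factors known to control transporter genes, 3 were higher in kidney, 5 in liver, 4 in intestine (Cdx2, Hnf4a, Nfe2l2 and Nr1i2) and 1 in lung (8.65%, 6.56%, 13.7% and 40.7% of all genes), while 4, 2, 0 and 6 were lower (16.1%, 32.7%, 11.3% and 8.26%). Under median-of-ratios scaling 6 were higher and 1 lower in liver (10.5% and 16% of all genes), and 0 higher and 7 lower in lung (18.8% and 13%).

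The remaining anion transporters fell into a set centred on kidney and a set shared with liver. Slc22a22, a prostaglandin-selective transporter, was at 45.3 and 52.8 FPKM in kidney, 0.0447 and 0.159 in liver, 0.0876 and 0.0362 in intestine, and 0.336 and 0.297 in lung. Slc22a13, which carries nicotinate and urate, was at 40.7 and 41.1 in kidney, 0.164 and 0.0968 in liver, 1.28 and 1.46 in intestine, and 0.256 and 0.121 in lung. Slc22a19, a dicarboxylate-linked anion exchanger, was at 15.1 and 12.5 in kidney, 0.0201 and 0.0357 in liver, 0 and 0 in intestine, and 0.0754 and 0.0148 in lung. In all 3 the kidney libraries stood apart from the rest; Slc22a26 (at most 6.07) and Slc22a29 (at most 2.57), lower genes of the rodent chromosome 19 cluster, also peaked in kidney.

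Slc22a7, the anion transporter of liver and kidney, was shared. It was at 71.1 and 81.3 FPKM in kidney, 11 and 12 in liver, 0.0532 and 0 in intestine, and 0.255 and 0.0802 in lung, and was called higher in both organs. Slc22a28 was at 121 and 77.2 in kidney, 24.1 and 28.7 in liver, 0 and 0.176 in intestine, and 0.307 and 0.0402 in lung. Slc22a30 went further towards liver, with 72.0 and 41.5 in kidney, 66.7 and 88.3 in liver, 0.0634 and 0.131 in intestine, and 0.274 and 0.0717 in lung. Its kidney and liver values overlapped, and it was higher in liver than in the mean of the others by 4.23 (SE 0.22, limma adjusted p 4.01e-06), the mean of the others including the kidney values. Slc22a28 shares 68.2% of its 31-base words with other genes, chiefly Slc22a30, and Slc22a30 42.9%, so their split is uncertain.

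**Figure D3:**
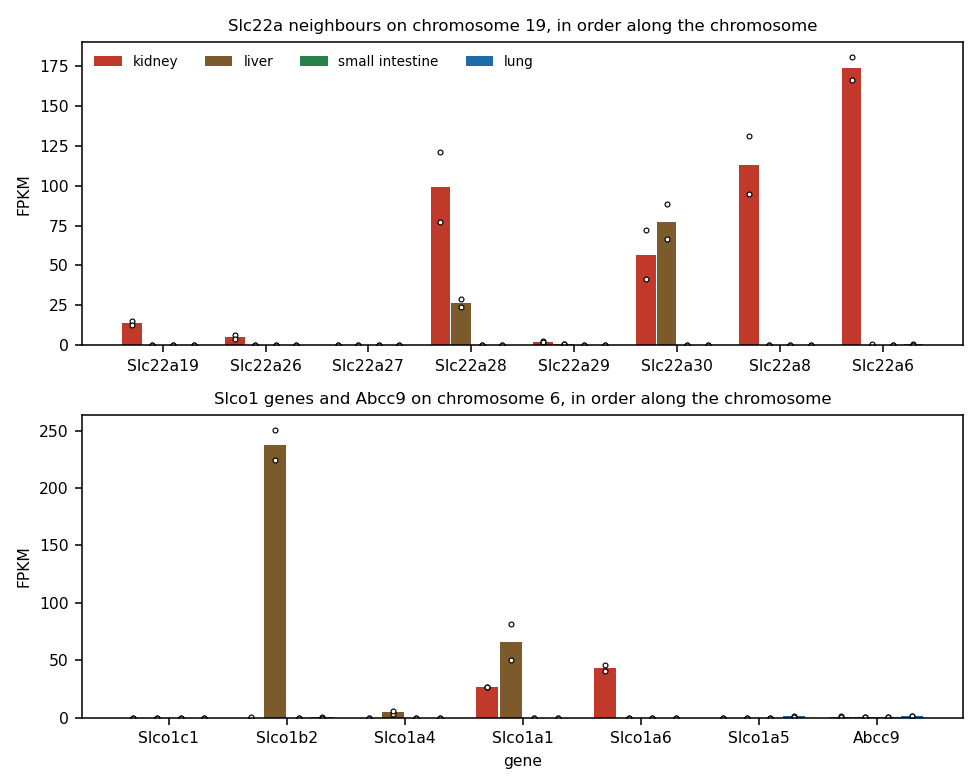
FPKM of neighbouring transporter genes in order along chromosome 19 (upper panel) and chromosome 6 (lower panel), with a bar at the mean of 2 libraries per tissue and 1 circle per library. On chromosome 19 the bars of Slc22a28, Slc22a30, Slc22a8 and Slc22a6 stand out in kidney and those of Slc22a28 and Slc22a30 also in liver, while on chromosome 6 Slco1b2 and Slco1a1 stand out in liver and Slco1a6 in kidney.

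Many members lie in groups. Within 500 kb of another member were 36 of the 57, in 10 groups. The group with the most members spans 955.2 kb of chromosome 19 (GRCm38, chr19:7673061-8628299) and holds 8 Slc22a genes. By mean FPKM 7 were highest in kidney and 1, Slc22a30, in liver, where it overlapped with kidney. Slc22a27 had only 10 and 3 reads in kidney, and its liver replicate 1 (0.152 FPKM) lay above kidney replicate 2 (0.0805). The levels inside the group ran from at most 0.217 FPKM for Slc22a27 to 181 for Slc22a6. Slc22a27 and Slc22a29 share 46.9% and 44.0% of their 31-base words with other genes, chiefly each other, so their split is uncertain. In the group of 3 on chromosome 5 (chr5:8660077-8959231) Abcb1a was highest in intestine and Abcb4 in liver, while Abcb1b was low in all 8 libraries and overlapped between kidney, intestine and lung. The Slco1 group on chromosome 6 with its neighbour Abcc9 (chr6:141524368-142702315) held liver-led, kidney-led and lung-led genes.

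The other Slc22a genes are orphans or have other roles. Slc22a18, an imprinted gene of unsettled substrate, was at 279 and 306 FPKM in kidney, 59.3 and 50.5 in liver, 58.7 and 48.3 in intestine, and 8.14 and 6.20 in lung. Liver and intestine did not separate, kidney lay above and lung below both. Slc22a17, a receptor for lipocalin-2, was at 5.93 and 2.81 in kidney, 0.169 and 0.343 in liver, 1.09 and 0.723 in intestine, and 5.49 and 6.72 in lung, with calls of higher in both kidney and lung. Its kidney call was not stable: the difference was 0.57 without kidney replicate 1, 0.97 without liver replicate 1, and 0.96 without intestine replicate 2 or lung replicate 1. Slc22a23 was at 7.24 and 3.53 in kidney, 5.06 and 5.55 in liver, 3.14 and 5.13 in intestine, and 6.88 and 9.17 in lung, overlapping between tissues. Slc22a13b-ps, annotated as a polymorphic pseudogene, was at 9.34 and 8.36 in kidney, 0.150 and 0.266 in liver, 10.7 and 9.63 in intestine, and 0.421 and 0.993 in lung. It was called higher in intestine by 2.04 (SE 0.17, limma adjusted p 4.38e-05) and in kidney by 1.80 (SE 0.17, limma adjusted p 0.000102). It shares 57.2% of its 31-base words with Slc22a13, which was at 40.7 and 41.1 in kidney and at most 1.46 in intestine. The split of reads between these genes was not tested. Slc22a15 peaked in lung at 1.25.

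Organic anion transporting polypeptides, the Slco genes, carry large amphipathic anions such as bile acids, steroid conjugates, thyroid hormones and prostaglandins. Of 10 tested, 4 were higher and 3 lower in kidney (8.65% and 16.1% of all genes), 4 and 4 in liver (6.56% and 32.7%), 0 and 5 in intestine (13.7% and 11.3%), and 4 and 3 in lung (40.7% and 8.26%). Under median-of-ratios scaling 3 were higher in lung, where 18.8% of all genes were. Slco1b2, the hepatocyte route for bile acids and many drugs, was at 0.0851 and 0.434 FPKM in kidney, 224 and 251 in liver, 0.0650 and 0.197 in intestine, and 0.540 and 0.261 in lung. The difference of liver was 7.57 (SE 0.17, limma adjusted p 7.33e-08), the largest of any member in liver. Slco1a1 was at 26.5 and 27.0 in kidney, 50.1 and 81.3 in liver, 0.0202 and 0.0335 in intestine, and 0.116 and 0.0610 in lung. It was shared by the organs of excretion, with liver above the mean of the others by 4.37 (SE 0.19, limma adjusted p 1.36e-06).

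Slco1a4, a carrier of bile acids and digoxin, was at 0.225 and 0.0811 FPKM in kidney, 3.69 and 6.33 in liver, 0 and 0 in intestine, and 0 and 0.0376 in lung, a liver pattern at a low level. Slco1a6, from the same chromosome group, was at 45.8 and 40.7 in kidney, 0.0287 and 0.0254 in liver, 0 and 0 in intestine, and 0.161 and 0.0211 in lung, the reverse organ. Slco2b1, a broad steroid sulphate carrier, was at 2.20 and 1.35 in kidney, 11.4 and 11.8 in liver, 6.76 and 5.71 in intestine, and 4.86 and 4.16 in lung. It was present in all 8 libraries, with liver highest and kidney lowest.

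Of the members called higher in lung, Slco2a1, the prostaglandin importer that precedes prostaglandin breakdown, was at 1.40 and 0.874 FPKM in kidney, 5.41 and 5.28 in liver, 4.25 and 5.39 in intestine, and 30.0 and 31.5 in lung. Lung was higher by 2.90 (SE 0.15, limma adjusted p 2.43e-06). Slco3a1 was at 19 and 14.4 in kidney, 0.386 and 0.560 in liver, 1.53 and 1.60 in intestine, and 12.4 and 14.9 in lung, so kidney and lung overlapped. Against the mean of the other tissues it was called higher in kidney by 2.20 (SE 0.16, limma adjusted p 2.78e-05) and in lung by 1.86 (SE 0.16, limma adjusted p 2.63e-05). Slco4c1, a carrier of digoxin and thyroid hormone, was at 5.16 and 2.93 in kidney, 0 and 0 in liver, 0.0653 and 0.108 in intestine, and 7.99 and 6.34 in lung. It was called higher in lung by 2.22 (SE 0.19, limma adjusted p 2.63e-05) and in kidney by 1.25 (SE 0.19, limma adjusted p 0.00102), the latter falling to 0.93 without kidney replicate 1. The 3 endothelial markers summed to 273 and 325 FPKM in lung against 4.97 to 14.2 elsewhere, all 3 reaching 1 in both libraries of kidney, liver and lung and 2 in intestine; their part in the lung differences was not tested. Slco1a5 peaked in lung at 1.40 and Slco4a1 in kidney at 2.15.

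Efflux ran through Slc47a1 and a varied set of ABC pumps. Slc47a1, the proton antiporter that passes cations into urine and bile, was at 164 and 105 FPKM in kidney, 21 and 23.2 in liver, 13.7 and 13.8 in intestine, and 1.45 and 0.951 in lung. The order kidney, liver, intestine, lung held without overlap, and the lung difference was -4.02 (SE 0.19, limma adjusted p 1.45e-06). Abcg2, a luminal pump for urate and drugs, was at 47.1 and 33.4 in kidney, 6.85 and 7.32 in liver, 19.2 and 18.1 in intestine, and 3.25 and 4.15 in lung, again without overlap. Kidney was called higher and lung lower.

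Of the 10 ABC pumps tested, 2 were higher and 3 lower in kidney, 4 and 2 in liver, 3 and 1 in intestine, and 3 and 4 in lung. Over all genes these shares were 8.65% and 16.1% in kidney, 6.56% and 32.7% in liver, 13.7% and 11.3% in intestine, and 40.7% and 8.26% in lung. Under median-of-ratios scaling 2 were higher in intestine (12.8% of all genes) and 1 in lung (18.8%). Abcc2, the apical pump for glucuronide and glutathione conjugates, was at 30.4 and 12.4 FPKM in kidney, 39.2 and 44.5 in liver, 31.1 and 43.0 in intestine, and 0.252 and 0.0755 in lung. Liver and intestine overlapped, and both were called higher than the mean of the other tissues, liver by 2.15 (SE 0.30, limma adjusted p 0.000463) and intestine by 1.90 (SE 0.30, limma adjusted p 0.00132), while kidney was called neither against the other tissues nor against liver. The lung difference was -4.79 (SE 0.30, limma adjusted p 5.53e-06). Abcc3, the basolateral counterpart that returns conjugates to blood, was at 0.286 and 0.182 in kidney, 24 and 20.0 in liver, 12.3 and 10.9 in intestine, and 5.39 and 7.72 in lung, so kidney was the lowest tissue, with 35 and 18 reads. The kidney difference was -3.39 (SE 0.17, limma adjusted p 4.43e-06). In kidney, Abcc4, the other conjugate pump of the tubule, was called higher at 3.85 and 1.84, but kidney overlapped lung (1.46 and 1.91) and its difference fell to 0.73 without kidney replicate 1.

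Abcb1a, the P-glycoprotein that limits drug absorption, was at 0.723 and 0.358 FPKM in kidney, 0.259 and 0.283 in liver, 14.3 and 32.8 in intestine, and 6.62 and 7.34 in lung. Intestine was higher by 3.19 (SE 0.28, limma adjusted p 5.81e-05), although its replicates lay far apart. The acinar markers, summed 2148 in the lower and 963 in the higher of these libraries, moved the other way, and their part was not tested. Abcb1a was also called higher in lung, but not under median-of-ratios scaling, where the difference was 0.60 with a limma adjusted p of 0.108. The lung call was also lost without intestine replicate 1 (0.98) and without lung replicate 2 (1.11, limma adjusted p 0.0658). Its paralog Abcb1b, which has 17.4% of its 31-base words in other genes, stayed at or below 0.788 in every library, while Abcb1a has 28.2%.

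Of the 4 ABC pumps called higher in liver, Abcb4 and Abcc6 were narrower in range than Abcc2 and Abcc3. Abcb4, the phospholipid translocator of the canalicular membrane, was at 0.0199 and 0.0185 FPKM in kidney, 10.9 and 11.2 in liver, 0.0114 and 0 in intestine, and 0.0764 and 0.103 in lung, with liver higher by 3.54 (SE 0.10, limma adjusted p 1.52e-07). Abcc6, the gene of pseudoxanthoma elasticum, was at 1.67 and 0.808 in kidney, 16.1 and 17.2 in liver, 2.61 and 2.84 in intestine, and 0.0716 and 0.169 in lung. In both, the liver libraries lay apart from all others. Abcc5, a cyclic nucleotide pump, was instead highest in lung, at 10.8 and 10.9 against 2.79 and 0.954 in kidney, 0.330 and 0.448 in liver, and 1.13 and 1.23 in intestine, a difference of 2.55 (SE 0.24, limma adjusted p 4.15e-05). Abcc1, a glutathione conjugate pump, peaked in lung at 3.14, and Abcc10 in intestine at 3.66. Abcc9, the channel subunit, reached at most 1.36 in any library.

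**Figure D4:**
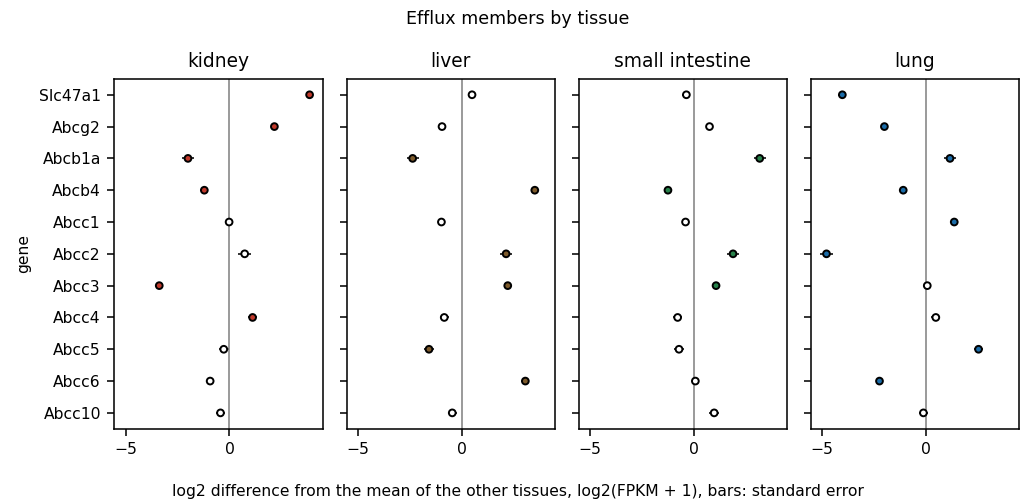
Log2 difference of each tested efflux member from the mean of the other tissues, on log2(FPKM + 1), 1 panel per tissue. Points are the fitted differences, horizontal bars their standard errors, and filled points the called ones, which lie from -4.79 (Abcc2 in lung) to 3.87 (Slc47a1 in kidney).

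Kidney and liver, the organs that clear most drugs, were then compared directly. This comparison shares its libraries with those above. Kidney was higher for 24 members and lower for 8 of the 44, where 16.2% and 6.9% of all genes were called. Higher by the widest margins were Slc22a12 by 7.89 (SE 0.30, limma adjusted p 8.68e-07), Slc22a6 by 7.04, Slc22a2 by 6.56 and Slc22a8 by 6.54. The 8 lower in kidney were Slco1b2 (-7.58, SE 0.21, limma adjusted p 2.55e-07), Abcc3 (-4.21), Abcb4 (-3.56), Abcc6 (-3.01), Slco1a1, Slco1a4, Slco2a1 and Slco2b1. Of uptake members 21 were higher in kidney and 5 lower, and of efflux members 3 and 3. Thus 5 of the 8 on the liver side were Slco genes and 3 were pumps, and none was of the Slc22a family. Slco1a1 was the least stable of them, at -0.88 without liver replicate 2 and -0.66 with equal sums outside mitochondrial genes. Slc22a30 and Abcc2 were high in both organs and not called.

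**Figure D5:**
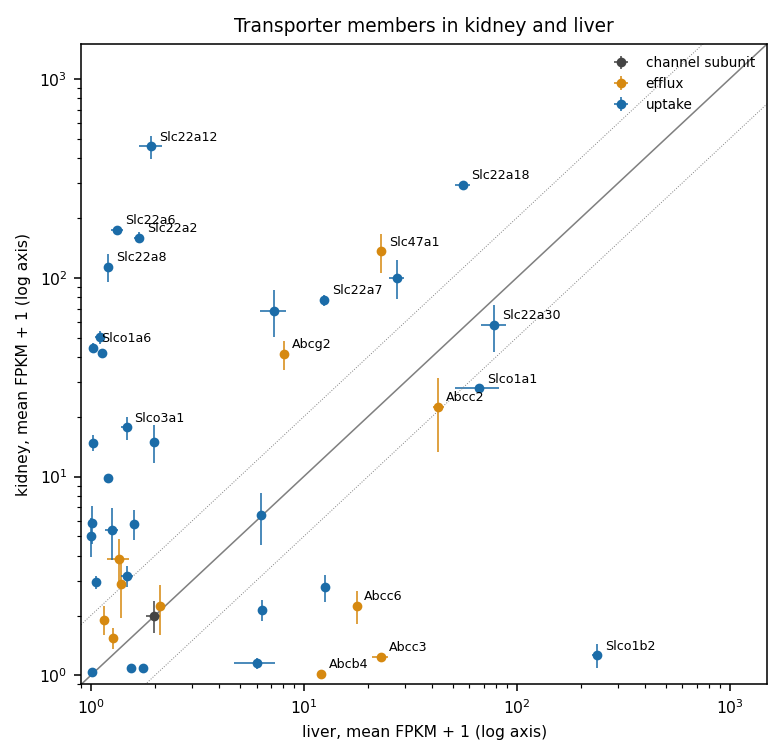
Mean FPKM + 1 of 43 tested members in liver (horizontal) and kidney (vertical), both on log axes, with bars from the lower to the higher of the 2 libraries. The solid line marks equal levels and the dotted lines a ratio of 2 either way; Slc22a12, Slc22a6, Slc22a2 and Slc22a8 stand at the upper left and Slco1b2 at the lower right.

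A stricter view asked which members had both libraries of 1 tissue at least 4-fold above every other library in FPKM. Kidney had 12 such members (2.06% of all genes tested), namely Slc22a2, Slc22a6, Slc22a7, Slc22a8, Slc22a12, Slc22a13, Slc22a18, Slc22a19, Slc22a22, Slc22a26, Slc47a1 and Slco1a6. Liver had 4, Slco1b2, Slco1a4, Abcb4 and Abcc6 (2.6%), intestine 0 (3.42%), and lung 2, Slco1a5 and Slco2a1 (10.9%). Under median-of-ratios scaling kidney lost Slc22a7, Slc22a18 and Slc47a1, leaving 9 (2.4% of all genes), and lung lost Slco2a1, leaving 1 (7.24%), while liver kept 4 (3.33%) and intestine 0 (3.61%).

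The levels of these 12 kidney members in the other tissues varied widely. Taken as a percentage of the kidney mean, the 12 had a median of 0.474 in lung replicate 1 and 0.144 in lung replicate 2, 0.158 and 0.291 in liver, and 0.0896 and 0.0627 in intestine. Far above these medians, Slc22a18 was at 20.3% and 17.2% of its kidney mean in liver and 20.0% and 16.5% in intestine, Slc47a1 at 15.6% and 17.2% in liver and 10.2% and 10.3% in intestine, and Slc22a7 at 14.4% and 15.7% in liver. In 11 of the 12 the value of lung replicate 1 was above that of replicate 2. The 4 proximal tubule markers together were at 0.452% and 0.162% of their kidney level in the lung libraries. Lung replicate 1 was also above replicate 2 in the summed markers of hepatocytes (79.7 and 46.3 FPKM), enterocytes (14.2 and 2.99) and pancreatic acinar cells (4.23 and 0.879). The part of RNA from other tissues in the lung values was not tested.

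Further transporters, some of them for bile acids, and the scaffold genes Pdzk1 and Slc9a3r1 work on the same routes. Of 18 such genes, 7 were higher and 7 lower in kidney (8.65% and 16.1% of all genes), 6 and 9 in liver (6.56% and 32.7%), 11 and 6 in intestine (13.7% and 11.3%), and 2 and 13 in lung (40.7% and 8.26%). Under median-of-ratios scaling the lung counts were 0 and 13 (18.8% and 13% of all genes). The difference between these genes and the organic ion transporters was not tested. In intestine the peptide carrier Slc15a1 was at 42.8 and 64.5 FPKM, and it was at most 0.346 elsewhere. The basolateral bile acid exporter Slc51a was at 91.4 and 129 in intestine, 35.5 and 32.6 in kidney, and at most 0.576 in liver and lung. In liver the bile acid importer Slc10a1, at 179 and 205, and the canalicular export pump Abcb11, at 67.0 and 62.5, lay below Slco1b2 and above Abcb4. In kidney the dicarboxylate carrier Slc13a3, which supplies the exchange substrate of the anion transporters, was at 102 and 79.1 and at most 2.13 elsewhere. The scaffold Pdzk1, which binds several of these transporters, was at 86.0 and 72.6 in kidney. It was at 16.6 and 23.9 in intestine, where it was also called higher, 3.07 and 3.70 in liver, and at most 0.374 in lung.

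The 13 members under the filter had low values or none. Listed at 0 in all 8 libraries were Slc22a16 and Slc22a20 and the testis-associated genes Slco6b1, Slco6c1 and Slco6d1. The other 8 reached at most 0.788 FPKM (Abcb1b), with 0.365 for Slco5a1, 0.364 for Slc22a14, 0.217 for Slc22a27, 0.212 for Slc47a2, 0.172 for Abcc8, 0.0931 for Slco1c1 and 0.0363 for Abcc12. These were not all at the limit of detection, since Abcb1b had 135 and 60 reads in kidney, while Abcc12 had at most 3 in any library. Slc47a2, the paralog next to Slc47a1, had 11 and 1 reads in kidney, so that Slc47a1 carried nearly all antiporter RNA. At these depths a gene at 0 was not detectable, which does not show that it was absent.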

How the data were processed

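Polyadenylated RNA of 4 mouse tissues was sequenced in 2 libraries each. The authors mapped reads with STAR 2.5.3a and deposited FPKM values computed by DESeq2; the counting program and its use of strand are not given in the sources used here. FPKM is not a count, so limma 3.58.1 (R 4.3.3, eBayes with a trend) was fitted to log2(FPKM + 1) of genes reaching 1 FPKM in 2 or more libraries, with a mean per tissue. Reads were recovered from the steps of low values and the exon lengths of GENCODE M21, to which 51844 symbols matched once; 94.5% to 96.1% of values under 50 reads were whole within 0.02. Members and gene lists were chosen with earlier results of these data known. Values in every library were given for the 34 members with a mean FPKM of 5 or more in a tissue, and statistics for at most the 4 called members of largest difference in each direction, with a few values outside that rule chosen after they were seen. Words of 31 bases shared between transcripts measured similarity between genes. The limma step was tested on simulated data. Alternatives changed the pseudocount, filter, scaling, trend, block and libraries. Promoters came from RefSeq GRCm38.p6; Python 3.11.15 and matplotlib 3.10.9 were used. No protein sequence was used here. The results of a few listed genes are not reported here.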

Additional observations from a re-analysis of the deposited data

How the results depend on the processing

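Of 144 called member differences tried under 16 alternatives, 2232 of 2292 refits kept the call, 60 lost it and 0 changed direction. With a pseudocount of 5, members lower in liver were 11 (18 as reported), higher in intestine 3 (6) and higher in lung 3 (8), since the larger constant shrinks differences of low genes; 43 of the lost calls came from it. With median-of-ratios scaling, members higher in lung were 5. Of 40 family sums, 26 moved by more than 1 SD under that scaling. Leaving out each library in turn gave, as lowest and highest counts, 22 and 26 higher and 6 and 7 lower in kidney, 12 and 12 and 18 and 20 in liver, 6 and 7 and 15 and 16 in intestine, 7 and 8 and 22 and 22 in lung, and 23 and 25 and 7 and 9 for kidney against liver; the lone library of a tissue was then assumed to vary like the others. Apart from the pseudocount, 17 refits lost a call, in 9 members. Without kidney replicate 1, Abcc4 (0.73), Slc22a17 (0.57) and Slco4c1 (0.93) were no longer called in kidney. With median-of-ratios scaling, Abcc1 (0.89), Slco1a5 (0.82) and Abcb1a (0.60) were lost in lung and Abcc3 (0.95) in intestine. Slc22a29 between kidney and liver was 0.94 under that scaling, 0.91 without kidney replicate 1 and 0.998 without liver replicate 2. Where not stated, the cause was not tested. With the stricter filter of 5, 33 members were tested.

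The replicate numbers were checked as a possible pairing. Deviations of same-numbered libraries correlated between -0.22 and 0.05, which gives no sign of a pairing and does not tell whether any share a mouse. With a replicate block the counts were 25 and 6 in kidney, 12 and 18 in liver, 6 and 15 in intestine, 8 and 22 in lung, and 24 and 8 for kidney against liver, as without it. Depth limits members under about 3 reads, which applies to many values of kidney-led genes in intestine.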
